A study of Mus musculus with 24 samples.

Results

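The comparison described here sets NIH3T3 fibroblasts harvested 480 min after spermidine was added against the same cells harvested after 360 min. Its members are the 6 of 24 arrays in the series that carry those labels, 3 biological replicates at each time. NIH3T3 is an established line of mouse embryonic fibroblasts. Both groups came from cells grown in 1 mM DFMO for 96 h (difluoromethylornithine, an irreversible inhibitor of ornithine decarboxylase), which then received 10 µM spermidine together with 1 mM aminoguanidine, which blocks oxidation of the added polyamine. The only labelled difference between the groups is thus 120 min of further culture after the addition. Total RNA was read on Affymetrix MoGene 1.0 ST arrays, and the series as a whole followed 8 times from 0 to 600 min to ask how transcription changes when growth resumes. None of the 24 arrays is labelled as DFMO alone for 360 or 480 min, so time in culture and time with spermidine cannot be told apart. The labels call the replicates biological and say no more, so the p-values measure the spread between these samples.

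Polyamines are small cations that bind nucleic acids, and cells deprived of them slow or stop dividing. Cells that re-enter the cycle first raise E2F-driven genes that start S phase and copy DNA, then histone genes during S phase, and later the genes of mitosis. Cholesterol is built from acetyl-CoA through mevalonate, squalene and lanosterol, and most enzymes of the route are under the sterol-sensing transcription factor SREBP-2, which acts together with factors such as NF-Y, which binds CCAAT boxes. Fatty acid synthesis is driven in a similar way, with a larger part for the related factor SREBP-1.

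Levels are the deposited log2 values, and changes are log2 differences, 480 min minus 360 min, with the standard error (SE) of a limma model fitted to all 24 arrays. A gene was called when its limma p, adjusted over all 19938 genes, was under 0.05. The medians of the 24 arrays lay between 4.40 and 4.45, and a level near 4 is close to the floor of the array. The first principal component, with 63.1% of the variance, placed the 360 min arrays at 14.1 to 15.3, the 480 min arrays at 20.6 to 22.8 and the 600 min arrays at 24.1 to 26.2. Outside the 6 arrays compared, replicate 3 labelled 120 min (2.6) and replicate 3 labelled 240 min (-13.2) lay away from both other arrays of their times (-12.2 for both at 120 min, 2.1 and 1.5 at 240 min). The 120 min array thus lay close to those 240 min arrays, and the 240 min array close to those 120 min arrays. Both were kept under their labels. They enter the spread shared by all times, so counts are also given without them. They were picked for lying apart, so the fit without them has a narrower spread by selection. An effect of replicate number had been removed before deposit, which leaves 14 residual degrees of freedom where 16 were counted, so the p-values are too small. The fit with a replicate block has those 14 and called 65 genes (0.326%) where the fit without it called 122. Of 12 fibroblast markers 11 had a mean level of at least 5, with a median of 9.33 at 360 min and 9.48 at 480 min and a log2 summed level of 14.40 to 14.54 and 14.44 to 14.47. Marker lists of macrophages, epithelium, endothelium, muscle and adipocytes had medians between 3.81 and 4.18 and 0 or 1 member each with a mean of at least 5. Limma called 0 members of any marker list.

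From 360 to 480 min, 58 genes rose and 64 fell, 0.612% of all genes tested (0.291% and 0.321%), with 2006 genes at an unadjusted p under 0.05. Of these 2006, out of 19938 tested, 804 were higher and 1202 lower. The rises were larger: 28 of the 58 were at least 0.5 on the log2 scale and 3 at least 1, against 4 and 0 of the 64 falls, and the medians were 0.49 and -0.31. In all 58 and all 64 the 3 arrays of one time lay beyond the 3 of the other, which held for 6.67% of all genes upward and 8.64% downward. The 4 lists of sterol and fatty acid genes, SREBP control and sterol traffic among them, hold 49 of the 19938 genes tested. Their members made up 39.7% of the rises, 23 genes, and none of these lists had a member that fell. Over the fits tried that share ran from 29.1%, without both arrays that lay apart, to 52.8%, with a replicate block. A few genes of DNA replication, histones and mitosis rose as well. Of the 64 falls 5 belonged to any of the 39 lists examined, against 32 of the 58 rises. The share of all genes in the 39 lists was not counted, and the lists were chosen with earlier results of these data known. These counts thus do not show how varied the falls were. RNA was taken from whole cultures, so a change in the share of cells in a state and a change in RNA per cell cannot be told apart.

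The number of calls depended on the fit and on single arrays. With a replicate block 36 genes rose and 29 fell, and without both arrays that lay apart 110 rose and 127 fell, among them all 122 genes. In a fit to only the 6 arrays compared 51 rose and 33 fell, and 72 of the 122 calls were lost. With arrays numbered by replicate, leaving out array 1, 2 or 3 at 360 min gave 25, 30 and 55 rises and 17, 31 and 35 falls, and leaving out array 1, 2 or 3 at 480 min gave 36, 42 and 36 rises and 41, 35 and 26 falls. Of the 122 genes, 22 rises and 12 falls kept their call whichever of the 6 arrays was left out. The split between rises and falls turned with the scaling, at 71 rises and 40 falls (64.0% rises) under quantile normalization and 53 rises and 83 falls (39.0%) under median centring, against 47.5% rises here.

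**Figure D1:**
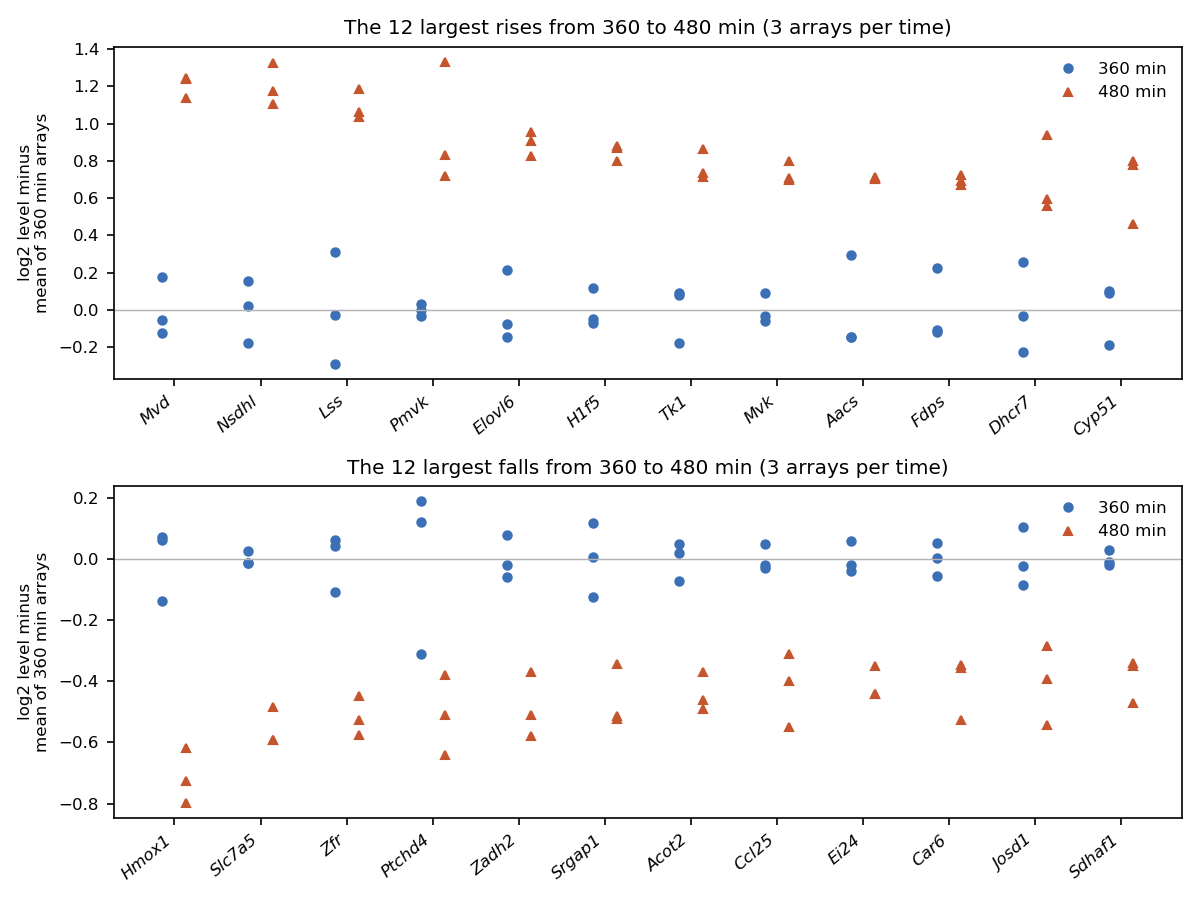
Levels of the 12 genes that rose most (upper panel) and the 12 that fell most (lower panel), as log2 level minus the mean of the 360 min arrays, with 1 point per array (3 at 360 min, circles, and 3 at 480 min, triangles). Only called genes whose circles and triangles do not overlap were taken, and the rises reach 1.21 (Mvd) while the falls reach -0.71 (Hmox1).

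Enzymes of the mevalonate pathway were among the largest rises. Of 7 measured, 4 rose and 0 fell, with a median of 0.74 against -0.004 over all genes. Mvd, mevalonate diphosphate decarboxylase, had levels of 7.22, 7.15 and 7.45 at 360 min (arrays of replicates 1, 2 and 3, the order and numbers used throughout) and 8.41, 8.52 and 8.51 at 480 min. Every 480 min array was thus far above every 360 min array, and the difference of 1.21 ± 0.16 (SE, 2.31-fold, limma adjusted p = 0.00112) was the largest rise of the comparison. Pmvk, phosphomevalonate kinase, lay at 5.34, 5.31 and 5.37 and then at 6.17, 6.06 and 6.67, a rise of 0.96 ± 0.13 (adjusted p = 0.00112). Its 360 min arrays were close together and its 480 min arrays were spread by 0.33 (SD), all of them higher. Mvk, mevalonate kinase, went from 6.73, 6.76 and 6.88 to 7.59, 7.49 and 7.50, a rise of 0.74 ± 0.09 (adjusted p = 7.33e-04). Fdps, farnesyl diphosphate synthase, went from 7.95, 7.96 and 8.29 to 8.76, 8.74 and 8.79, a rise of 0.70 ± 0.10 (adjusted p = 0.00151). In both genes the 480 min arrays were tight and above the highest 360 min array, which for Fdps was replicate 3. These 4 calls were kept without any 1 of the 6 arrays and with the replicate block.

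The other 3 enzymes of the mevalonate pathway did not pass the test and were chosen after their values were seen. Idi1, isopentenyl-diphosphate isomerase, was at 9.16, 9.49 and 9.62 and then at 10.20, 10.39 and 10.55, a difference of 0.96 ± 0.23 (adjusted p = 0.0621). Its groups did not overlap, and its other probe set gave 0.89. Hmgcs1, HMG-CoA synthase, differed by 0.52 ± 0.19 (adjusted p = 0.316), and Ggps1, geranylgeranyl diphosphate synthase on a side branch, by -0.03 ± 0.06 (adjusted p = 0.928). Without both arrays that lay apart the adjusted p was 4.10e-04 for Idi1 and 0.00278 for Hmgcs1.

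From squalene to cholesterol, 10 of 12 measured enzymes rose, 0 fell, and the median was 0.62. Nsdhl, a dehydrogenase in the removal of the C4 methyl groups, had levels of 7.53, 7.73 and 7.86 at 360 min and 9.03, 8.81 and 8.88 at 480 min. The lowest 480 min array stood well above the highest 360 min array, and the rise of 1.20 ± 0.11 (2.29-fold) had the smallest adjusted p of the comparison (1.30e-05). Lss, lanosterol synthase, went from 8.12, 8.38 and 8.72 to 9.47, 9.44 and 9.59, a rise of 1.09 ± 0.12 (adjusted p = 1.49e-04). The 360 min arrays of Lss were spread by 0.30 (SD) and those of 480 min by 0.08, without overlap. Hsd17b7, a sterol ketoreductase, went from 8.23, 8.41 and 8.47 to 8.94, 8.87 and 9.02 (0.57 ± 0.08, adjusted p = 0.00151). Sc5d, a sterol desaturase, went from 9.42, 9.59 and 9.68 to 10.09, 10.14 and 10.16 (0.56 ± 0.07, adjusted p = 7.33e-04). These 4 genes kept their call without any 1 of the 6 arrays and with the block, and in each of them replicate 1 was the lowest of the 360 min arrays.

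Dhcr7, which carries out the last reduction to cholesterol, went from 6.53, 6.72 and 7.01 to 7.31, 7.35 and 7.69, a rise of 0.69 ± 0.12 (limma adjusted p = 0.00891). The gap between the groups was smaller than the range within each, and the call ended without array 1 at 360 min or array 3 at 480 min (adjusted p up to 0.0671). Cyp51, lanosterol demethylase, went from 9.68, 9.97 and 9.96 to 10.33, 10.65 and 10.67, a rise of 0.68 ± 0.15 (adjusted p = 0.0316). Replicate 1 was the low array at both times, and the call ended with the replicate block (0.0708) and without any 1 array except array 1 at 480 min (up to 0.177). Among the members chosen after their values were seen, Sqle, squalene epoxidase, rose by 0.64 ± 0.13 (0.0285, and 0.0672 with the block). Fdft1, squalene synthase, rose by 0.62 ± 0.11 (0.00874), and Tm7sf2, a sterol C14 reductase, by 0.50 ± 0.10 (0.0204, and 0.0518 with the block). Lbr, the lamin B receptor, which has the same reductase activity, rose by 0.25 ± 0.06 (0.0479, and 0.112 with the block). Each of these 4 calls ended without replicate 1 or without array 2 at 360 min, and those of Sqle and Lbr also without any of the 3 arrays of 480 min and that of Tm7sf2 without array 1 or 3 at 480 min. The highest adjusted p over those fits was 0.154 for Sqle, 0.0577 for Fdft1, 0.136 for Tm7sf2 and 0.204 for Lbr. Msmo1 (0.62, adjusted p = 0.0682), a C4-methyl oxidase, and Ebp (0.20, adjusted p = 0.312), a sterol isomerase, were not called.

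Over both stretches of the route together, 14 of 19 enzymes rose, with a median of 0.64. That count was 10 with the replicate block, 12 in a fit to only the 6 arrays compared, 17 without both arrays that lay apart, and 8 to 13 when 1 of the 6 arrays was left out, lowest without array 1 at 360 min. The difference was above 0 in 18 of the 19, against 9448 of 19938 over all genes.

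Promoters of some of the sterol enzymes that rose are printed here because those genes moved together and because most promoters of their lists hold a CCAAT box. Of the RefSeq promoter windows at hand (GRCm38.p6, 250 bases before to 50 after each start, 19177 windows of 15614 tested genes), 37.4% hold CCAAT on either strand. The share was 6 of 7 windows (85.7%) for the mevalonate pathway, 10 of 12 (83.3%) for squalene to cholesterol, 57.1% for fatty acid synthesis, 45.0% for all genes that rose and 29.2% for those that fell. The consensus of the sterol regulatory element, TCACNCCAC on either strand, was in 1.2% of all windows. It was in 0 of the 60 windows of genes that rose and in 2.8% of the 72 of genes that fell. By list it was in 1 of 7 windows (14.3%) for the mevalonate pathway, 0 of 12 for squalene to cholesterol and 0 of 14 for fatty acid synthesis. A match of letters is not evidence of a bound factor, and the absence of one says only that these letters are not in the window. The 150 bases before the start follow, on the gene's strand and read 5′ to 3′, with CCAAT or its reverse complement ATTGG in capitals. These genes were chosen after the matches were seen. They are Mvd (chr8:122443423-122443572, minus strand), Nsdhl (chrX:72918371-72918520, plus strand), Lss (chr10:76531455-76531604, plus strand), Mvk (chr5:114444119-114444268, plus strand) and Hsd17b7 (chr1:169969206-169969355, minus strand).
Mvd: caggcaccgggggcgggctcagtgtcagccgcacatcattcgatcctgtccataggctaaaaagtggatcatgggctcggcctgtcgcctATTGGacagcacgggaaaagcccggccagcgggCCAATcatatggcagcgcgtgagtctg
Nsdhl: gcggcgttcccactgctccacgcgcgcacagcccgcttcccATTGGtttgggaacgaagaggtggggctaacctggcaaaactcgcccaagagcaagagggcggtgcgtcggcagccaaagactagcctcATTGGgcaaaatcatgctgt
Lss: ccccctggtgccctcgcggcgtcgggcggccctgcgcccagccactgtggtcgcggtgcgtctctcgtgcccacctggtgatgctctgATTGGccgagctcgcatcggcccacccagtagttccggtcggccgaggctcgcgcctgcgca
Mvk: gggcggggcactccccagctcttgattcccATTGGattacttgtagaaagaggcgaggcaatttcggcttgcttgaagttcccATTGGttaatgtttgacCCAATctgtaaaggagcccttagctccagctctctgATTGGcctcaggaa
Hsd17b7: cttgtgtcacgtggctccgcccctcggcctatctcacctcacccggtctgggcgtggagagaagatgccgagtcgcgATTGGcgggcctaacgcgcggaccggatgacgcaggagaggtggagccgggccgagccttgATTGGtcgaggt
In these windows Mvk had 4 matches, Mvd, Nsdhl and Hsd17b7 had 2 each and Lss had 1. In Mvd the matches began 60 and 27 bases before the start, in Hsd17b7 73 and 12 bases before it, and in Lss 62 bases before it. Elovl6, Aacs and Tk1, which also rose, had 0 matches in the same stretch. Among sterol enzymes that rose and are not printed, Pmvk had 1 match before 1 of its 2 starts and 0 before the other. Dhcr7 had 2 matches before 1 of its 3 starts and 0 before the others, and Cyp51 and Sc5d had 1 match each.

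Few regulators of the sterol response passed the test. Of 15 measured genes of SREBP control and sterol traffic 2 rose and 0 fell, against 0.291% and 0.321% of all genes. The median of the 15 was -0.01. At an unadjusted limma p under 0.05, 4 of the 15 were higher and 0 lower, against 804 and 1202 of all 19938 genes. Srebf2, which encodes SREBP-2 itself, went from 8.72, 8.75 and 8.91 to 9.19, 9.06 and 9.20, a rise of 0.35 ± 0.07 (limma adjusted p = 0.0180). All 480 min arrays were above all 360 min arrays, and the call ended without array 1 or 2 at 360 min or array 1 or 3 at 480 min (up to 0.106). Tmem97, a sterol-responsive membrane protein gene, went from 9.57, 9.48 and 9.59 to 9.93, 9.85 and 9.86, a rise of 0.34 ± 0.06 (adjusted p = 0.00645) that no single array ended. Its second probe set gave 0.23, and the mean of both gave no call. Insig1, which holds SREBP in the endoplasmic reticulum, was at 0.47 (adjusted p = 0.277) and Stard4, a cholesterol carrier, at 0.65 (adjusted p = 0.106), neither of them called. Srebf1 was at -0.06 and the cholesterol exporter gene Abca1 at -0.16, and these 4 were chosen after their values were seen.

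In fatty acid synthesis 7 of 15 measured genes rose, 0 fell, and the median was 0.33. Elovl6, which extends palmitate, went from 7.71, 7.78 and 8.07 to 8.76, 8.68 and 8.81, a rise of 0.89 ± 0.09 (1.86-fold, limma adjusted p = 1.81e-05). Its 480 min arrays were spread by only 0.06 (SD) and lay far above the highest 360 min array. Acss2, an acetyl-CoA synthetase, went from 5.33, 5.56 and 5.52 to 6.12, 5.91 and 6.34 (0.65 ± 0.09, adjusted p = 0.00151). Acly, which makes cytosolic acetyl-CoA from citrate, went from 9.58, 9.64 and 9.69 to 10.24, 10.12 and 10.14 (0.53 ± 0.08, adjusted p = 0.00288). Fads1, a fatty acid desaturase, went from 9.72, 9.85 and 9.95 to 10.17, 10.19 and 10.37 (0.40 ± 0.06, adjusted p = 0.00514). In each of these 4 genes the groups were separate and the call was kept without any 1 of the 6 arrays and with the block. In a fit to only the 6 arrays compared 3 of the 15 genes were called, so not all of these 4 kept their call there.

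Fasn, fatty acid synthase, rose by 0.56 ± 0.10 (limma adjusted p = 0.0126), Fads2 by 0.52 ± 0.10 (0.0125) and Acaca, acetyl-CoA carboxylase, by 0.33 ± 0.06 (0.0171), 3 members chosen after their values were seen. All 3 calls ended without array 1 or 2 at 360 min, those of Fasn and Acaca also without array 1 at 480 min and those of Fads2 and Acaca without array 3 at 480 min (up to 0.0800, 0.0932 and 0.123). The stearoyl-CoA desaturase genes Scd1 (0.26, adjusted p = 0.171) and Scd2 (0.38, adjusted p = 0.437) were not called.

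Further genes of lipid supply lay outside these lists. Aacs, acetoacetyl-CoA synthetase, went from 8.51, 8.51 and 8.95 to 9.37, 9.36 and 9.36, a rise of 0.71 ± 0.13 (limma adjusted p = 0.00919). The 480 min arrays were nearly identical, while array 3 at 360 min stood above both others, and the call ended without array 1 or 2 at 360 min (up to 0.0671). Chosen after their values were seen, Lpin1, a phosphatidate phosphatase of triglyceride synthesis, rose by 0.57, Acsl4, an acyl-CoA synthetase, by 0.34, and Slc25a1, the mitochondrial citrate carrier, by 0.45. These 3 calls were kept without any 1 of the 6 arrays. Pcyt2, of phosphatidylethanolamine synthesis, rose by 0.63 (adjusted p = 0.0228, and 0.0561 with the block), and Pank1, a pantothenate kinase of coenzyme A synthesis, by 0.63 (0.0284, and 0.0671 with the block). The calls of Pcyt2 and Pank1 ended without array 1 or 2 at 360 min or array 1 or 3 at 480 min, and that of Pank1 also without array 2 at 480 min (up to 0.136 and 0.174). Over the 4 sterol and fatty acid lists together 23 of 49 genes rose and 0 fell, with a median of 0.38. The count was 19 with the replicate block, 18 in a fit to only the 6 arrays compared and 32 without both arrays that lay apart. It was 13 to 23 without 1 of the 6 arrays, lowest without array 1 at 360 min.

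**Figure D2:**
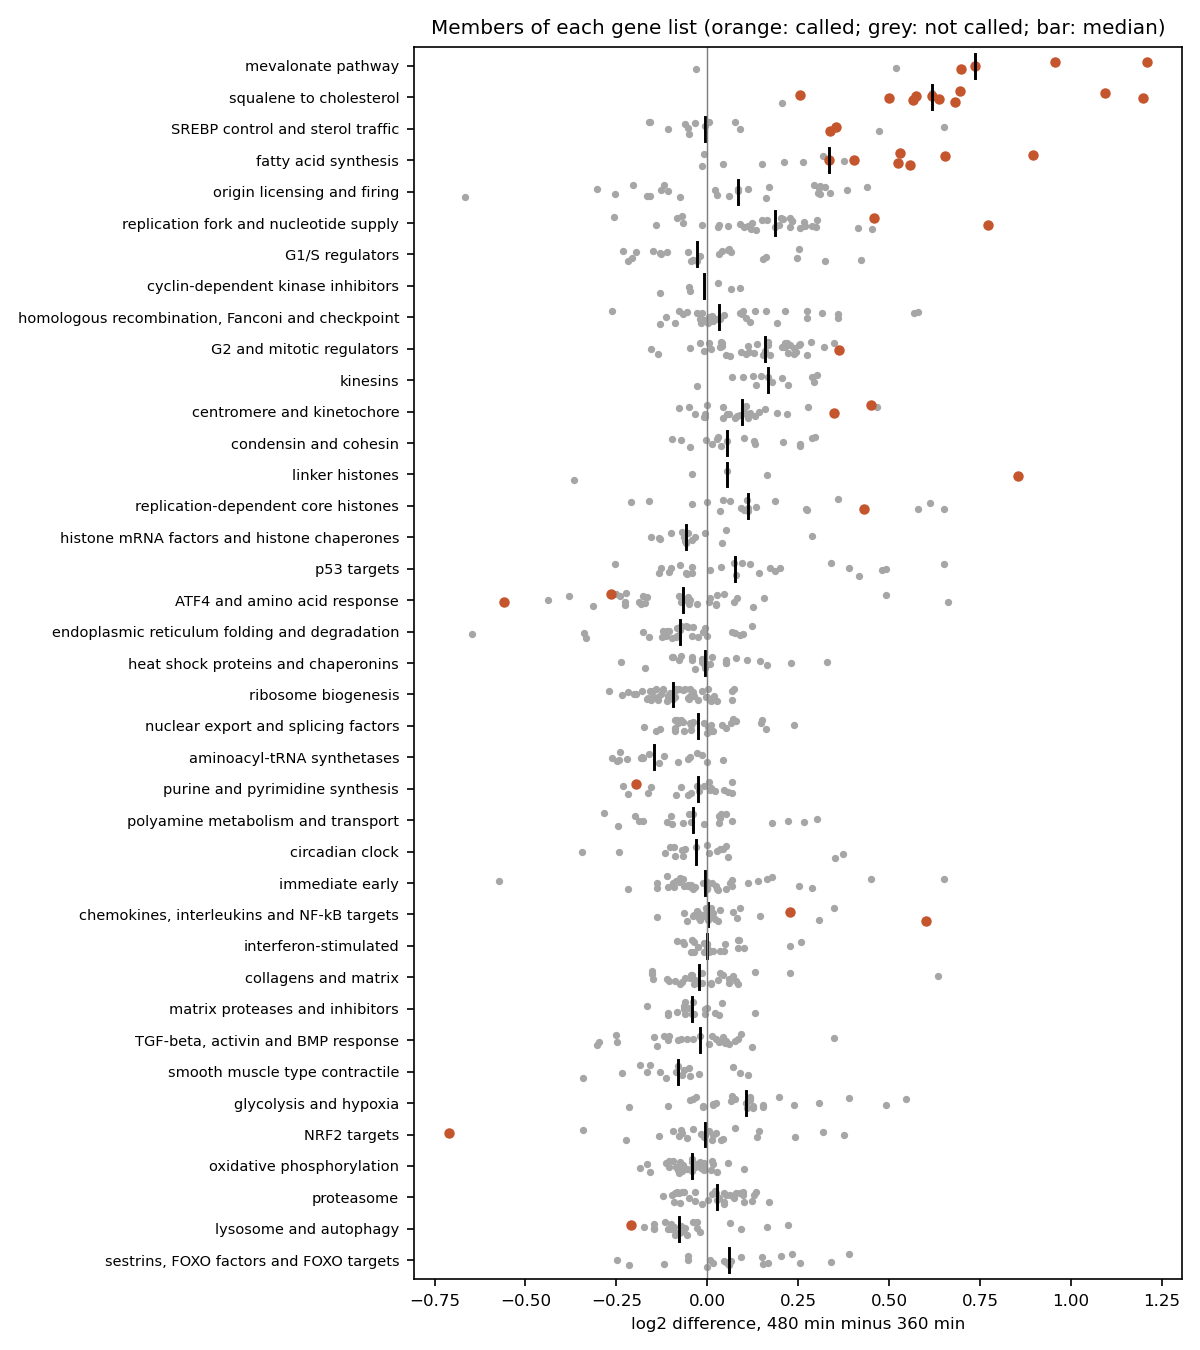
Log2 difference, 480 min minus 360 min, of every measured member of 39 gene lists (horizontal axis), with genes that passed the test in orange, others in grey and a bar at each list's median. The mevalonate, squalene to cholesterol and fatty acid lists lie to the right, with medians of 0.74, 0.62 and 0.33, while most other medians lie close to 0.

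Few genes of DNA replication passed the test. Of 87 genes of licensing, replication forks, nucleotide supply and the G1/S transition 2 rose and 0 fell, against 0.291% and 0.321% of all genes. The median of the 87 was 0.09, and 57 were above 0, against 9448 of 19938 over all genes. In a fit to only the 6 arrays compared 5 rose and 1 fell, and without both arrays that lay apart 7 rose and 1 fell. Tk1, thymidine kinase, went from 6.62, 6.88 and 6.89 to 7.66, 7.51 and 7.53, a rise of 0.77 ± 0.14 (1.71-fold, limma adjusted p = 0.00870). Both of its probe sets gave 0.77, the groups were separate, and the call ended without array 1 at 360 min, the lowest array (0.0671). Prim2, the large subunit of primase, went from 7.29, 7.24 and 7.26 to 7.70, 7.73 and 7.74, a rise of 0.46 ± 0.08 (adjusted p = 0.00943). Both groups were tight and far apart, and the call ended only without array 2 at 360 min (0.0531). At an unadjusted limma p under 0.05, 10 of 35 genes of replication forks and nucleotide supply were higher and 0 lower. Over all 19938 genes 804 were higher and 1202 lower at that level. None of 27 origin licensing and firing genes was called by limma, with 5 higher and 3 lower at an unadjusted p under 0.05. Gmnn, geminin, which blocks relicensing, had the smallest p among them (0.32, adjusted p = 0.114). Cdc6, a loader of the replicative helicase chosen after its values were seen, was at 7.11, 7.21 and 7.16 and then at 6.37, 6.57 and 6.56, a difference of -0.66 ± 0.30 (adjusted p = 0.454). Its arrays did not overlap, and the adjusted p was 0.0146 without both arrays that lay apart. Among 25 G1/S regulators limma called 0, with 4 higher at an unadjusted p under 0.05, and Mybl2, a cell cycle transcription factor, was closest (0.42, adjusted p = 0.113). Among 36 genes of homologous recombination, the Fanconi pathway and checkpoints it called 0, with 7 higher at an unadjusted p under 0.05. Rad54l, a recombination motor protein, was closest (0.57, adjusted p = 0.0724).

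A linker histone was among the larger rises. H1f5, a replication-dependent linker histone, went from 7.42, 7.44 and 7.61 to 8.29, 8.36 and 8.37, a rise of 0.85 ± 0.11 (1.81-fold, limma adjusted p = 0.00112) that was kept without any 1 of the 6 arrays and with the block. The 480 min arrays were tight and well above those of 360 min. It was the 1 of 5 linker histones that was called. H1f2, chosen after its values were seen, was at 5.82, 5.46 and 5.98 and then at 5.11, 5.19 and 5.86, so its arrays overlapped (-0.37 ± 0.27, adjusted p = 0.719). Among 21 replication-dependent core histones 1 rose, 0 fell, and the median was 0.11. H2ac15 went from 5.83, 5.86 and 5.94 to 6.33, 6.43 and 6.16 (0.43 ± 0.09, adjusted p = 0.0301), with the 3 arrays of 480 min above those of 360 min. Its call ended with the block (0.0702) and without any 1 array except array 3 at 480 min (up to 0.161). Histone genes have near-identical copies, so a probe set may read RNA of more than 1 of them and these values are uncertain as to the copy.

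Few genes of G2 and mitosis passed the test, but most lay slightly above 0. Of 101 genes of mitotic regulation, kinesins, kinetochore and condensin 3 rose and 0 fell, against 0.291% and 0.321% of all genes. The median of the 101 was 0.13, and 84 were above 0, against 9448 of 19938 over all genes. The count of rises was 1 with the replicate block and also 1 without any array of the 6 except array 3 at 360 min, without which it was 4. At an unadjusted limma p under 0.05, 14 of 43 mitotic regulators and 4 of 13 kinesins were higher. So were 4 of 28 centromere and kinetochore genes and 2 of 17 condensin and cohesin genes, and 0 of any of these lists were lower. Over all 19938 genes 804 were higher and 1202 lower at that level. Melk, a mitotic kinase, went from 5.40, 5.56 and 5.43 to 5.80, 5.85 and 5.82, a rise of 0.36 ± 0.06 (limma adjusted p = 0.00558) kept without any 1 of the 6 arrays. Cenpn, a centromere protein that binds CENP-A nucleosomes, went from 6.89, 6.88 and 7.10 to 7.39, 7.39 and 7.44 (0.45 ± 0.09, adjusted p = 0.0204, and 0.0518 with the block). Nuf2, of the kinetochore's microtubule-binding NDC80 complex, went from 6.95, 7.04 and 7.06 to 7.28, 7.31 and 7.51 (0.35 ± 0.08, adjusted p = 0.0425, and 0.0981 with the block). In all 3 genes the groups were separate. The call of Cenpn ended without any 1 array except array 3 at 360 min (up to 0.124) and that of Nuf2 without any 1 of the 6 (0.0557 to 0.204). Outside the lists and chosen after their values were seen, the spindle genes Spag5 (0.42 ± 0.08, adjusted p = 0.0125) and Knstrn (0.30 ± 0.07, adjusted p = 0.0365, and 0.0848 with the block) rose. The call of Spag5 ended without array 1 or 2 at 360 min or array 1 at 480 min (up to 0.0736), and that of Knstrn without any 1 of the 6 (up to 0.136). The mitotic genes Plk1 (0.24, adjusted p = 0.378), Aurka (0.17, 0.751), Top2a (0.13, 0.688) and Cdk1 (0.11, 0.820), chosen in the same way, were not called.

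Promoters of H1f5 and Cenpn are shown because both genes rose, belong to the histone and kinetochore lists and hold CCAAT boxes. In Cenpn the letters TTTGAA, the core of the cell cycle homology region found at many G2 and mitotic genes, stand on the opposite strand as TTCAAA next to the box. They are the 150 bases before the start, from RefSeq and GRCm38.p6, at chr13:21780626-21780775 on the minus strand for H1f5 and at chr8:116921590-116921739 on the plus strand for Cenpn. Capitals mark both motifs in either direction, and the genes were chosen after the matches were seen. Melk, Nuf2 and Knstrn, which also rose, had 0 matches to either motif in the same stretch. Spag5, which rose too, had 1 box there and 0 matches to the other motif. The printed pair thus does not stand for the mitotic genes that rose.
H1f5: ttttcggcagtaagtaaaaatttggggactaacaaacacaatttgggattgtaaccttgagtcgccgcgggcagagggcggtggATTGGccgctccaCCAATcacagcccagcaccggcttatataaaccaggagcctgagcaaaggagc
Cenpn: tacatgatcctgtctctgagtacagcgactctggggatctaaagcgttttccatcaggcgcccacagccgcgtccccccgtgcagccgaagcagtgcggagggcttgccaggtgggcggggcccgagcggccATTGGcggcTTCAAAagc
In Cenpn the box began 18 and the TTCAAA 9 bases before the start, and in H1f5 the 2 boxes began 66 and 53 bases before it. TTTGAA on either strand was in 14.8% of all windows, in 71.8% of the windows of the G2 and mitotic list (28 of 39), in 25.0% of those of genes that rose and in 11.1% of those that fell. The E2F-type letters TTTNNCGC were in 6.5% of all windows, 5.0% of those of genes that rose and 8.3% of those that fell.

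The falls were small, and those named here belonged to varied functions. Hmox1, heme oxygenase, which degrades heme and is induced by oxidative stress, went from 9.21, 9.20 and 9.00 to 8.52, 8.41 and 8.34, a fall of 0.71 on the log2 scale (SE 0.16, limma adjusted p = 0.0394). The groups were wide apart, but the call ended with the block (0.0853) and without any 1 of the 6 arrays (0.0573 to 0.154). Under quantile normalization the log2 difference of Hmox1 was -0.68 (adjusted p = 0.0518). It was the 1 of 25 NRF2 targets that was called, and the list's median was -0.01. Nqo1 (0.37, adjusted p = 0.688) and Gclm (0.01, adjusted p = 0.998), further NRF2 targets chosen after their values were seen, were not called.

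Slc7a5, the LAT1 transporter of large neutral amino acids, went from 10.09, 10.13 and 10.09 to 9.51, 9.62 and 9.51, a difference of -0.56 ± 0.10 (limma adjusted p = 0.00808). All 6 arrays were close to their group's mean, and the call was kept without any 1 of them and with the block. Asns, asparagine synthetase, went from 11.29, 11.37 and 11.34 to 11.09, 11.13 and 10.99 (-0.26 ± 0.06, adjusted p = 0.0323), without overlap. Its call ended with the block (0.0806) and without any 1 array except array 2 at 480 min (up to 0.164). These were the 2 of 34 ATF4 and amino acid response genes that fell. None rose, and the median was -0.07. Atf4 itself was at -0.05 (adjusted p = 0.966) and its stress target Ddit3 at -0.38 (0.403), while Ddit4, an mTORC1 inhibitor, was at 0.66 (0.113), all 3 chosen after their values were seen. Of the 18 aminoacyl-tRNA synthetases limma called 0, with 7 lower at an unadjusted p under 0.05. Their median was -0.15, and 1 of 18 was above 0. Gars, for glycine, had the smallest p (-0.25, adjusted p = 0.128). Of 49 ribosome biogenesis genes limma also called 0, with 10 lower at an unadjusted p under 0.05 and a median of -0.09. In both of these lists 0 were higher at that level. Over all 19938 genes 804 were higher and 1202 lower at that level, with a median of -0.004.

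Zfr, a zinc finger RNA-binding protein gene, went from 9.21, 9.23 and 9.06 to 8.72, 8.64 and 8.59 (-0.52 ± 0.09, limma adjusted p = 0.00645). Ei24, an endoplasmic reticulum protein gene linked to autophagy, went from 10.40, 10.32 and 10.30 to 9.90, 9.90 and 9.99 (-0.42 ± 0.06, adjusted p = 0.00132). Car6, a secreted carbonic anhydrase, went from 6.17, 6.12 and 6.06 to 5.59, 5.77 and 5.76 (-0.41 ± 0.06, adjusted p = 0.00151). Sdhaf1, an assembly factor of succinate dehydrogenase, went from 7.16, 7.17 and 7.21 to 6.71, 6.84 and 6.83 (-0.38 ± 0.06, adjusted p = 0.00567). In these 4 genes no arrays overlapped and the call was kept without any 1 of the 6 arrays and with the block. Acot2, a mitochondrial acyl-CoA thioesterase, fell by 0.44 (adjusted p = 0.0137), and Zadh2, a prostaglandin reductase, by 0.49 (0.00943). Josd1, a deubiquitinase, fell by 0.40 (0.0164). The calls of Acot2 and Josd1 ended without 4 of the 6 arrays each, that of Zadh2 without array 3 at 360 min or array 1 or 3 at 480 min (up to 0.0800, 0.107 and 0.0575). For Acot2 these were replicates 1 and 2 of each time, and for Josd1 replicates 1 and 3 of 360 min and 2 and 3 of 480 min.

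Other large falls were less secure. Ptchd4, a patched-domain gene, went from 6.16, 5.66 and 6.09 to 5.59, 5.46 and 5.33 (-0.51 ± 0.11, limma adjusted p = 0.0396). Its groups were separated by a narrow gap, its second probe set gave 0.02, and the call ended with the block (0.0869) and without any 1 array except array 2 at 360 min (up to 0.210). Srgap1, a GTPase-activating protein gene of Slit-Robo signalling, fell by 0.46 (0.0228, and 0.0561 with the block) and Ccl25, a chemokine gene, by 0.42 (0.0125). The call of Srgap1 ended without array 1 or 3 at 360 min or array 1 or 2 at 480 min (up to 0.114) and that of Ccl25 without array 1 or 2 at 360 min or array 2 at 480 min (up to 0.0852). Nme1, a nucleoside diphosphate kinase, fell by 0.20 (0.0204, and 0.0591 with the block) and was the 1 of 20 purine and pyrimidine genes called. Atp6v0d1, a subunit of the lysosomal proton pump, fell by 0.21 (0.0448, and 0.111 with the block) and was the 1 of 26 lysosome and autophagy genes called. The call of Atp6v0d1 ended without any 1 of the 6 arrays (0.0684 to 0.177) and that of Nme1 without array 1 or 3 at 360 min or array 3 at 480 min (up to 0.133).

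Of 29 chemokines, interleukins and NF-kB targets 2 rose and 0 fell, and the median was 0.00. Ccl2, the monocyte chemoattractant, went from 7.87, 7.51 and 7.44 to 8.34, 8.05 and 8.23, a rise of 0.60 ± 0.12 (limma adjusted p = 0.0200, and 0.0510 with the block). Replicate 1 was the highest array at both times, the groups did not overlap, and the call ended without array 2 or 3 at 360 min or array 1 or 3 at 480 min (up to 0.123). Ccl9, another chemokine, rose by 0.23 (0.0323, and 0.0831 with the block) at levels between 4.45 and 4.79, close to the array's floor, and its call ended without any 1 array except array 1 at 480 min (up to 0.166).

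Genes of polyamine metabolism and transport did not pass the test. Limma called 0 of 23, with 2 higher and 5 lower at an unadjusted p under 0.05, and the median was -0.04. Over all 19938 genes 804 were higher and 1202 lower at that level. Odc1, ornithine decarboxylase, the target of DFMO, was at 9.94, 9.80 and 9.60 and then at 9.49, 9.62 and 9.63, so the arrays overlapped (-0.20 ± 0.07, adjusted p = 0.260). Without array 3 at 360 min, the lowest of its group, Odc1 was called as lower (0.0444). Sat1, the acetyltransferase that starts polyamine breakdown, was at 9.64, 9.60 and 9.64 and then at 9.95, 9.77 and 9.83, without overlap (0.22 ± 0.07, adjusted p = 0.244). Smox, spermine oxidase, was at 0.30 (adjusted p = 0.271), Oaz2, an antizyme, at 0.27 (0.636) and Azin1, antizyme inhibitor, at -0.10 (0.777). Gpc1, a heparan sulfate proteoglycan linked to polyamine uptake, was at -0.28 (0.186), Atp13a3, a polyamine transporter, at -0.25 (0.263), and Srm, spermidine synthase, at -0.10 (0.705). For Eif5a, the translation factor that carries hypusine, the difference was 0.03 ± 0.07 (0.938). The other 14 members lay between -0.19 (Dhps) and 0.18 (Dohh), both of which act in hypusine formation.

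The remaining lists had no called member. Among them were 26 p53 targets (median 0.08, with 1 higher and 1 lower at an unadjusted p under 0.05) and 40 immediate early genes (-0.01, 1 and 0). There were also 28 glycolysis and hypoxia genes (0.11, 6 and 0) and 37 oxidative phosphorylation genes (-0.04, 0 and 3). Over all 19938 genes those counts were 804 and 1202. The members nearest the threshold were Ccng1, cyclin G1 (-0.13, limma adjusted p = 0.222), Ier3 (0.45, 0.487), Pfkm, muscle-type phosphofructokinase (0.31, 0.111), and Ndufa8, a complex I subunit (-0.16, 0.341). Endoplasmic reticulum folding genes (29, median -0.07, 0 and 3) and smooth muscle type contractile genes (17, -0.08, 0 and 5) had none called either. Dnajb9, an endoplasmic reticulum chaperone (-0.65, adjusted p = 0.413), and Tagln, transgelin (-0.23, 0.0957), were nearest there.

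**Figure D3:**
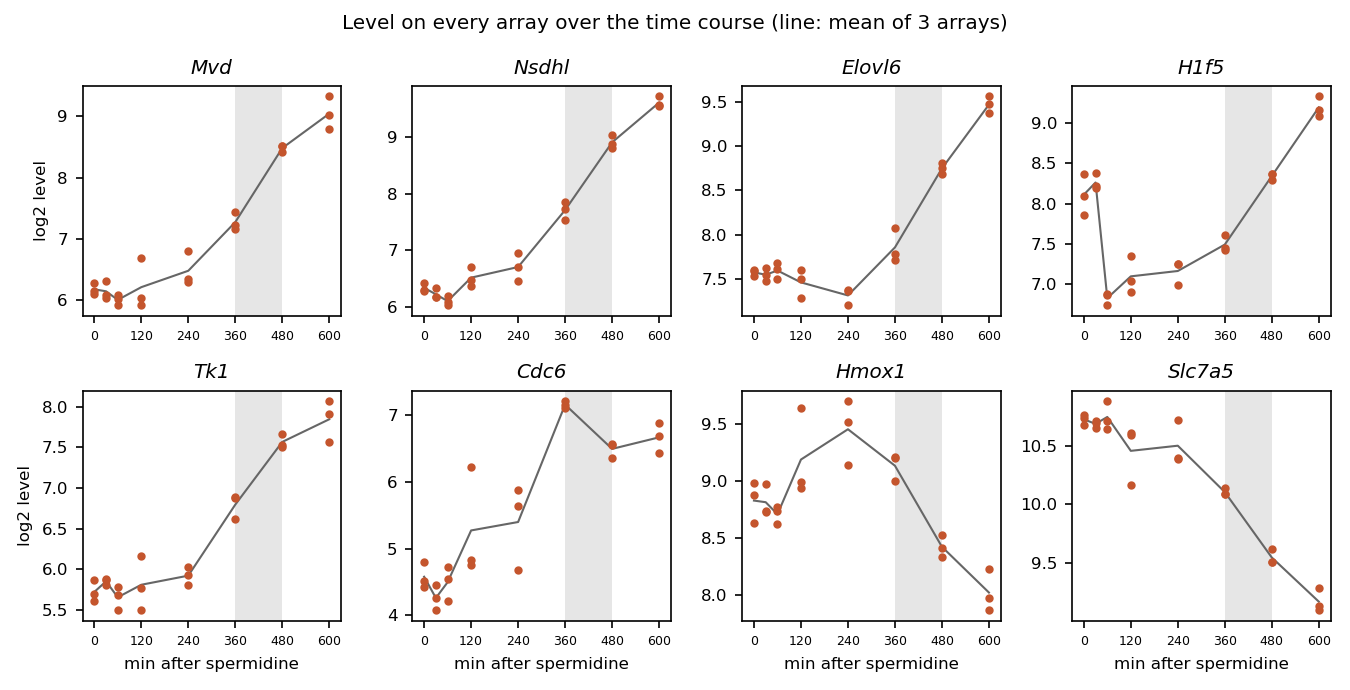
Log2 level of 8 genes on every array against time after spermidine in min, with a line through the mean of 3 arrays and the interval from 360 to 480 min shaded. Mvd, Nsdhl, Elovl6, Tk1 and H1f5 climb through the shaded interval, H1f5 from below its 0 min level, while Cdc6 is highest at 360 min and Hmox1 and Slc7a5 decline.

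The same genes were then set beside the intervals before and after. Limma called 1207 genes from 240 to 360 min (6.05% of all genes), 848 of them higher (4.25%) and 359 lower (1.80%), and 36 from 480 to 600 min (0.181%), and these intervals share the 360 and the 480 min arrays with the comparison described here. Without both arrays that lay apart, 1 of which is labelled 240 min, the counts were 603 (3.02%, with 455 or 2.28% higher) and 91 (0.456%). The medians and single-gene steps from 240 to 360 min below include that 240 min array and were not recomputed without it. It moved some genes and not others. At 240 min Cdc6 was at 5.63, 5.88 and 4.69 and Elovl6 at 7.36, 7.20 and 7.37, both chosen after their values were seen. The mevalonate pathway had 5, 4 and 2 of 7 genes higher in the 3 successive intervals, with medians of 0.79, 0.74 and 0.50. Squalene to cholesterol had 10, 10 and 4 of 12, with medians of 0.86, 0.62 and 0.37, and fatty acid synthesis 8, 7 and 3 of 15, with medians of 0.29, 0.33 and 0.30. Without both arrays that lay apart the counts in the 3 intervals were 5, 6 and 3 for the mevalonate pathway, 9, 11 and 6 for squalene to cholesterol and 5, 11 and 8 for fatty acid synthesis. The p-values were adjusted within each interval, so these counts do not share 1 cut of the unadjusted p. From 480 to 600 min, 17 of the 19 mevalonate and squalene to cholesterol enzymes had an unadjusted limma p under 0.05, in either direction. Over the 4 sterol and fatty acid lists 29 of 49 genes did. Over 87 replication and G1/S genes 58 were called from 240 to 360 min (53 without both arrays), 2 from 360 to 480 min and 0 from 480 to 600 min (8 at an unadjusted p under 0.05), with medians of 0.55, 0.09 and 0.01. The 101 G2 and mitotic genes had 45 (33 without both arrays), 3 and 2 called, with medians of 0.30, 0.13 and 0.07.

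Within the lipid lists the steps of single genes stood as follows. Fdps differed by 0.98, 0.70 and 0.35 over the 3 intervals and Lss by 1.08, 1.09 and 0.58, so that the last step was the smallest of the 3. Mvd had its largest step here, 1.21, between 0.79 and 0.56. Pmvk, at 5.17 at 0 min and 5.18 at 240 min, had steps of 0.16, 0.96 and 0.93 and was called in the last interval too (adjusted p = 0.00176). Acss2 had steps of 0.29, 0.65 and 0.78, and Tm7sf2 0.44, 0.50 and 0.78. H1f5, a histone gene given for comparison, was at 8.11 at 0 min and at 7.16 at 240 min, and its steps were 0.33, 0.85 and 0.85, to 9.20 at 600 min. These differences between steps were not called for any gene named in this paragraph.

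**Figure D4:**
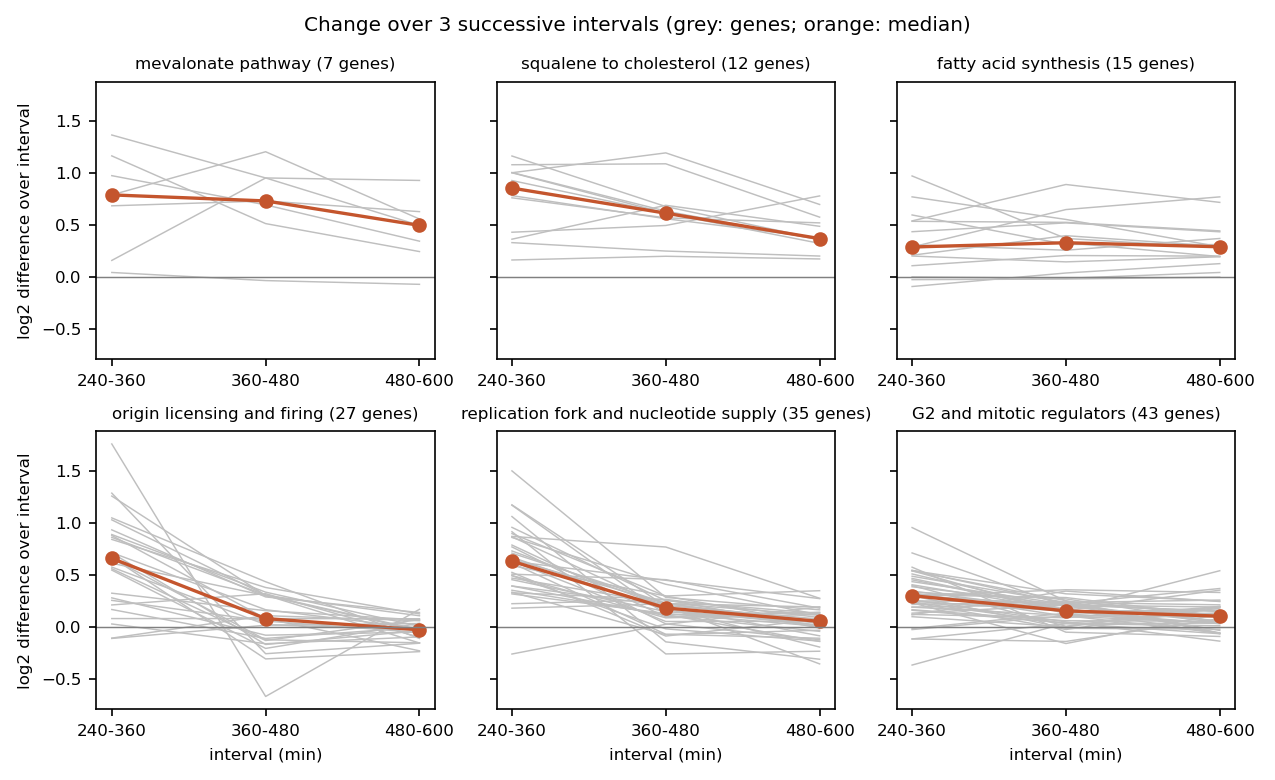
Log2 difference over the intervals 240 to 360, 360 to 480 and 480 to 600 min (horizontal axis) for each gene of 6 lists, 1 grey line per gene, with the list's median in orange. The first interval includes the 240 min array that lay apart from its time. The medians of the sterol lists stay well above 0 in all 3 intervals, while those of the 2 replication lists drop from 0.66 and 0.63 to 0.08 and 0.19 and then to -0.02 and 0.06.

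A test of the difference between intervals called few genes. Against the change from 240 to 360 min, limma called Nudt11 as larger from 360 to 480 min and Gpr63 as smaller (2 genes, 0.0100% of all), with 1746 genes at an unadjusted p under 0.05. Against the change from 480 to 600 min it called Olfr118 as larger and 0 as smaller (0.00502%), with 987 genes at an unadjusted p under 0.05. From 240 to 600 min the mean levels of Nudt11, a diphosphoinositol phosphatase, lay between 3.77 and 4.03, those of Olfr118, an olfactory receptor gene, between 3.58 and 3.78, and those of Gpr63, an orphan receptor gene, between 4.47 and 4.80. All 3 are close to the floor of the array. Among genes with a mean of at least 5 limma called 0 in either test, with 974 and 324 at an unadjusted p under 0.05. No replication gene was called in this test on all 24 arrays. Without both arrays that lay apart 18 genes were called as smaller, among them Cdc6, Chaf1b, Dtl, Hells, Chek1 and Ticrr, chosen after their values were seen. With the replicate block as well 4 remained called: Cdc6, Hells, Mbd4 and Ticrr. Without array 3 at 120 min alone 27 were called as smaller, and without array 3 at 240 min alone none, with 1283 genes at an unadjusted p under 0.05.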

How the data were processed

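RNA of 24 samples, 8 times with 3 biological replicates each, was read on Affymetrix MoGene 1.0 ST arrays from 200 ng of total RNA, per the labels' protocols. The deposited table holds 1 value per probe set and array, which the authors made with Partek and RMA per the submitters' processing notes, with versions not given in the sources used here. No source states the scale, and the deposited values were taken as log2 from their range. The mean over all arrays of a replicate number differed between numbers by a median of 5e-06 per probe set (at most 8.75e-05), so an effect of replicate number had been removed from the deposited log2 values before deposit. Such a step makes replicates look more alike than they were.

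Of 35399 probe sets, 21789 had 1 gene symbol in the platform annotation, 1621 had several and 11989 had none. The first gave 19938 genes, and 999 genes with several probe sets were represented by their brightest probe set. Groups were taken from the sample titles. A limma model (version 3.58.1, R 4.3.3) with 1 mean per time was fitted to all 24 arrays (16 residual degrees of freedom, median SE 0.0567), and p-values were adjusted over all genes by the Benjamini-Hochberg method with a threshold of 0.05. The analysis was tested on simulated data. The steps from 240 to 360 and from 480 to 600 min and their differences from the step studied were contrasts of the same model. Alternatives were a replicate block, a fit to only the arrays compared, leaving out each array, leaving out replicate 3 of 120 min and of 240 min, quantile normalization, median centring, genes with a mean of at least 5, the mean of probe sets, and a trended or robust prior variance.

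Genes were named by rule: the 12 largest rises and falls among called genes whose arrays did not overlap, up to 4 called members of each list by p or else the member with the smallest p, the polyamine list, and up to 4 genes for each difference between steps. Gene models known only by a number or clone name were left unnamed. The comparison, its gene lists and these rules were chosen with earlier results of these data known. Motifs were searched on both strands of RefSeq promoter windows of 250 bases before to 50 after the start (GRCm38.p6). The number of arrays limits the precision. Python 3.11.15 with pandas 2.3.3 and matplotlib 3.10.9 was used for tables and figures.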

Additional observations from a re-analysis of the deposited data

Results flagged for a closer look

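The change from 360 to 480 min differed by a limma test from that of a neighbouring interval in 3 genes. Gpr63 stood at 4.82, 4.79 and 4.81 at 360 min and at 4.55, 4.51 and 4.61 at 480 min. Its change was -0.25 after one of 0.34 from 240 to 360 min, a difference of -0.59 ± 0.09 (SE, limma adjusted p = 0.0253). Nudt11 stood at 3.76, 3.81 and 3.76 and then at 3.89, 3.93 and 3.90. Its change was 0.13 after one of -0.25, a difference of 0.38 ± 0.06 (adjusted p = 0.0253). Olfr118 stood at 3.57, 3.58 and 3.61 and then at 3.78, 3.79 and 3.78. Its change was 0.19 before one of -0.20 from 480 to 600 min, a difference of 0.39 ± 0.06 (adjusted p = 0.0235). In all 3 genes the arrays of 360 and 480 min did not overlap, the levels were close to the array's floor, and none of these differences was called with the replicate block.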

How the results depend on the processing

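With the replicate block 36 genes rose and 29 fell, and in a fit to only the arrays compared 51 rose and 33 fell. With quantile normalization 71 rose and 40 fell (64.0% of calls rises, against 47.5%), and with median centring 53 rose and 83 fell (39.0%). With a trended prior variance 54 rose and 36 fell, and without both arrays apart from their time 110 rose and 127 fell. Leaving out 1 array of 360 or 480 min gave 25 to 55 rises and 17 to 41 falls. Leaving out replicate 3 of 120 min or of 240 min, chosen after seeing the data as was their removal together with the block, gave 73 and 72 rises and 71 and 83 falls. Deviations of same-numbered arrays correlated at -0.115, 0.075 and -0.110, but the effect of replicate number had been removed before deposit, so these values cannot show whether the numbers pair the samples. The replicate block, which has the 14 residual degrees of freedom that this removal leaves, took 57 of the 122 calls. A fit to only the arrays compared took 72 of them.

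Genes whose step was larger than from 240 to 360 min (1) numbered 0 with the block, with the block and without both arrays apart, in a fit to only the arrays compared and among genes with a mean of at least 5, and 3 without both arrays apart. Genes whose step was smaller (1) numbered 0 with the block, in a fit to only the arrays compared, among genes with a mean of at least 5 and with a trended prior variance, 18 without both arrays apart and 4 without both and with the block. The gene with a larger step than from 480 to 600 min was lost (0) with the block, with or without both arrays apart, in a fit to only the arrays compared and among genes with a mean of at least 5. Over fits leaving out 1 array the 3 counts were 0 to 3, 0 to 27 and 0 to 1. Limma calls at an unadjusted p under 0.05 in these tests ran from 324 to 1976. The cause of these changes was not tested. With 3 arrays a time, genes whose levels lie near 4 are close to the signal floor, and small steps there are poorly resolved.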

Other observations

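Further called genes lay outside the lists and were chosen after their values were seen. Among genes of lipid and vitamin metabolism, Mmab, an enzyme of the vitamin B12 cofactor, rose by 0.56 (limma adjusted p = 0.00567), Tlcd1, a membrane lipid protein, by 0.45 (0.00558), and Rdh11, a retinol dehydrogenase, by 0.48 (0.00922). Erg28, a scaffold of sterol C4 demethylation, rose by 0.49 (0.0160). The calls of Mmab and Tlcd1 were kept without any 1 of the 6 arrays, that of Rdh11 ended without array 1 at 360 min or array 3 at 480 min (up to 0.0671), and that of Erg28 without array 1 or 2 at 360 min or array 1 or 3 at 480 min (up to 0.108).

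Gde1, a glycerophosphodiester phosphodiesterase chosen in the same way, fell by 0.36 (limma adjusted p = 0.00288), Cyb5r1, a cytochrome b5 reductase, by 0.34 (0.00645), Prss23, a serine protease, by 0.32 (0.00567) and Zdhhc4, a palmitoyltransferase, by 0.29 (0.00292). Atp6ap2, an accessory protein of the lysosomal proton pump, fell by 0.26 (0.00558), and Scarb2, a lysosomal membrane protein, by 0.26 (0.00790). These calls were kept without any 1 of the 6 arrays, except that of Scarb2, which ended without array 1 at 360 min (0.0666).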
